A study of Mus musculus with 354 samples.

Results

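OR3154 is an inbred mouse strain of the Collaborative Cross, whose lines each carry a different mix of shared founder genomes, and 1 of 45 such strains profiled in liver after tolvaptan or vehicle. Its members are the 8 of 354 arrays that carry this strain name, 1 array per male mouse, with 4 vehicle animals (231 to 234, labelled Control) and 4 tolvaptan animals (235 to 238). All 8 mice share strain, sex and tissue, the median lobe of the liver, and were sampled at 24 h. All were about 8 to 10 weeks old when dosing began, after some 7 days to settle in, and went without food for roughly 18 h before necropsy. No genetic change was engineered in either group, and the fast applies to the controls as much as to the treated mice, so every level below is that of a fasted liver. The labels do not say whether cage or litter was shared between animals. Values are log2 expression levels, on which a difference of 1 is a doubling, and they are listed in the order of the animal numbers throughout.

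The strain was chosen by measured values: it was singled out with tolvaptan minus vehicle differences of these same arrays in view, and which gene or count decided the choice is not recorded. Its response to tolvaptan is therefore given as a description. The levels of the strain against other strains are a separate measure and are tested, although the vehicle arrays also enter the response.

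Tolvaptan blocks the vasopressin V2 receptor, which acts in the collecting duct of the kidney, and is used in hyponatraemia and polycystic kidney disease. Liver injury is its best known adverse effect. The liver makes most plasma proteins, so its endoplasmic reticulum (ER) carries a heavy folding load: unfolded proteins trigger the unfolded protein response, which raises chaperones and the machinery of ER-associated degradation. Acute phase proteins are a second liver programme, driven by inflammatory cytokines. Cholesterol synthesis genes form another one, switched as a block by the transcription factor SREBP2 when sterols are low.

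The 8 arrays matched their strain label. Over 500 probe sets that separate the strains, each correlated at 0.80 to 0.93 with the profile of the other OR3154 arrays, while 34 of all 354 arrays, in 19 other strains, fell under 0.5 against their own label. Array medians lay between 2.86 and 2.95. Animals 234 and 238 were scanned in scan 1 and the other 6 in scan 3, so each scan holds both groups, with 1 animal of each in scan 1 and 3 of each in scan 3. Albumin measured 13.53 to 13.73 and the mean of 14 hepatocyte markers 12.62 to 12.72 in the 8 livers, and T and NK cell, bile duct and exocrine pancreas markers had means of 2.53 to 2.95, near the array median of 2.89.

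The first comparison asked what tolvaptan changed in OR3154. With limma, 0 of 14125 genes passed an adjusted p of 0.05, against 69 (0.488%) for the mean difference of the other 44 strains, a contrast that averages many more arrays. The lowest adjusted p in OR3154 was 0.0530. At an unadjusted p under 0.05 there were 470 genes (3.33%), 285 higher and 185 lower under tolvaptan. The 4 tolvaptan animals all lay above the 4 vehicle animals for 121 genes (0.857%) and all below for 100 (0.708%). Over all genes the median difference was 0.0075 and 51.6% of differences were positive. Each SE below uses the spread shared over all strains, so it can be smaller than the spread of the 8 OR3154 animals would give. Fitted on their own, those 8 arrays gave 0 genes passing and 391 at an unadjusted p under 0.05 (limma). The difference between OR3154 and the mean of the other 44 strains also passed for 0 genes in limma, with 431 at an unadjusted p under 0.05 and a lowest adjusted p of 0.209. Among 20 other settings the count in OR3154 stayed at 0 in 12 and was 1 to 4 in 8, with 320 to 799 genes at an unadjusted p under 0.05. It was 1 without the 2 OR3154 arrays of scan 1 (S100g), 1 without vehicle animal 234 (Car6), 3 without tolvaptan animal 235 (Car6, Mreg and S100g) and 1 without tolvaptan animal 238 (S100g). None of the tolvaptan differences described below passed in the first limma fit, and the numbers passing in the lists below are from that fit. Some passed in other settings that kept all 8 arrays. These were Mreg, S100g and Uroc1 with array weights, and Mreg without the arrays of other strains that were off their label. Car6 passed after quantile normalization, and Car6 and S100g with the mean of all probe sets.

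ER folding and degradation genes included the gene with the largest difference of any member of the lists, Derl3. Derl3 encodes a channel component of ER-associated degradation, which moves misfolded proteins out of the ER to the proteasome. It measured 6.16, 7.19, 5.41 and 5.65 in the vehicle animals and 7.97, 9.79, 10.35 and 8.19 in the tolvaptan animals. Every tolvaptan animal was above every vehicle animal, and 236 and 237 were the highest. The difference was 2.97 ± 0.88 (SE), 7.84-fold, with 3.12 in scan 3 and 2.53 in scan 1. It ranked 4 of 45 strains, and the other strains averaged 0.95. Leaving out 1 animal at a time moved it between 2.57 (without 237) and 3.37 (without 235).

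Several ER genes carry in their promoter the ER stress element, a pair of short motifs that the factors NF-Y and ATF6 bind. It was searched as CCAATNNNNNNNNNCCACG on both strands, in the 250 bases before and 50 after each start in RefSeq, build GRCm38.p6. Of the 35 tested genes of the ER list, 30 had a promoter there and 9 held the element, against 39 of all 32851 promoters (0.119%) and 18 of 11299 tested genes with one (0.159%). The list consists largely of genes known for this response, so this share describes the list. 5 of the 9 are shown, Derl3 as the gene with the largest difference, 3 that were high in the same animals, and Hspa5 as a classic target that was not. Capitals mark the 2 fixed motifs of the element, which on the opposite strand read as the reverse complement, as in Derl3 and Calr. Derl3 lies at chr10:75893148-75893447 on the plus strand, Pdia6 at chr12:17266339-17266638 on the plus strand, Dnajc3 at chr14:118937682-118937981 on the plus strand, Calr at chr8:84846882-84847181 on the minus strand and Hspa5 at chr2:34771840-34772139 on the plus strand.
Derl3: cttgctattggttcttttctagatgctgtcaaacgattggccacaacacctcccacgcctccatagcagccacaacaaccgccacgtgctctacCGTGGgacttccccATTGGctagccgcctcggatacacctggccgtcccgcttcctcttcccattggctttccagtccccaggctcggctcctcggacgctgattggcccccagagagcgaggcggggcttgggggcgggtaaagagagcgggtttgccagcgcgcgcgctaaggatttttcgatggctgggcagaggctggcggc
Pdia6: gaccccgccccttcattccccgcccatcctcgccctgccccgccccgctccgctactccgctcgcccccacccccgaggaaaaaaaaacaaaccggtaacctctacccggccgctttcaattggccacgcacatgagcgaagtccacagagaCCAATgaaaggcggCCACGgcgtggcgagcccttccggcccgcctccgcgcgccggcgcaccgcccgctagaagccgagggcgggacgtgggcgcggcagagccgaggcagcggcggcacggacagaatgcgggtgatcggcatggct
Dnajc3: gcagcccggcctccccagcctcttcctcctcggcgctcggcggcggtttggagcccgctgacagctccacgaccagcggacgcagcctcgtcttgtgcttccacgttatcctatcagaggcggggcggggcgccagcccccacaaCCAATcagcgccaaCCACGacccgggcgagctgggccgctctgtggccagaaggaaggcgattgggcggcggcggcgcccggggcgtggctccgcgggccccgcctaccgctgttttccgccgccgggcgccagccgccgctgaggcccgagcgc
Calr: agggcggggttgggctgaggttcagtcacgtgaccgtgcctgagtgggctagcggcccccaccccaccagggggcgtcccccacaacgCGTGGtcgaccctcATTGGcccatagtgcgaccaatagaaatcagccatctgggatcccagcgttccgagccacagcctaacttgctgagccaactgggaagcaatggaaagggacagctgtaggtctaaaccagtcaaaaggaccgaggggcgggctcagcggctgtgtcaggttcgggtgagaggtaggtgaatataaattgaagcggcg
Hspa5: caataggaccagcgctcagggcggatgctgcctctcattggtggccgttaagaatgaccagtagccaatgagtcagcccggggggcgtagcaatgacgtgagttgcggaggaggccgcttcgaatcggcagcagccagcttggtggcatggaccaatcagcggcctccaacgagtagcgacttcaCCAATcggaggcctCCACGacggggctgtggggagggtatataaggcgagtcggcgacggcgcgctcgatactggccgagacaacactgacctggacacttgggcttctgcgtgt

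In tolvaptan animals 236 and 237 a set of ER chaperones stood above the other 6 mice. Pdia6, a protein disulfide isomerase, measured 9.18, 9.03, 9.09 and 9.56 under vehicle and 9.51, 10.75, 10.39 and 9.32 under tolvaptan. Its difference was 0.78 ± 0.28 (SE), and 235 and 238 lay inside the vehicle range. Pdia4, another isomerase, measured 8.62, 8.95, 8.38 and 8.96 against 8.78, 10.44, 9.98 and 8.74. The same animals were high, and the difference was 0.76 ± 0.31 (SE). Sdf2l1, part of an ER chaperone complex, measured 7.30, 8.96, 7.24 and 8.42 against 7.44, 10.60, 9.82 and 7.91. Only 236 and 237 exceeded the vehicle animals, for a difference of 0.96 ± 0.58 (SE).

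The co-chaperone Dnajc3 measured 9.75, 9.11, 9.19 and 10.19 under vehicle and 9.90, 10.80, 10.39 and 9.77 under tolvaptan, a difference of 0.66 ± 0.33 (SE). Calr, a chaperone of glycoproteins, measured 11.24, 11.77, 11.06 and 11.36 against 11.16, 12.57, 12.05 and 11.54, and Edem1, which steers glycoproteins to degradation, differed by 0.49 ± 0.21 (SE). For each of these 3, animals 236 and 237 were again the 2 highest of the 8. Hspa5, the central ER chaperone BiP, did not follow them: it measured 10.34, 10.25, 9.87 and 10.61 against 9.97, 10.87, 10.07 and 9.69. The difference was -0.12 ± 0.35 (SE), with overlapping groups, and Hsp90b1 (-0.04 ± 0.36) and Creld2 (-0.44 ± 0.46) had no positive difference either, although their promoters hold the element.

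Across the ER list, 21 of 35 differences were positive and 0 passed, with a median of 0.06 against 0.03 in the other strains and 0.0075 over all genes. Of the 9 genes with the element 5 were positive, with a median of 0.05. Animal 236 exceeded all 4 vehicle animals for 16 of the 35 genes and 237 for 14, while 235 and 238 did so for 5 each. Animals 236 and 237 were the 2 highest of the 8 for 11 of 35 members (31.4%), against 4.21% of all 14125 genes. In the single pair of scan 1 the list's median difference was -0.21, and Pdia6, Pdia4, Sdf2l1 and Dnajc3 were lower in 238 than in 234 by 0.22 to 0.51 on the log2 scale.

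The amino acid response, run by the factor ATF4, showed the same 2 animals. Asns, asparagine synthetase, measured 3.19, 3.93, 3.34 and 3.0 under vehicle and 3.24, 5.06, 5.37 and 3.83 under tolvaptan. Psat1, a serine synthesis enzyme, measured 2.20, 2.19, 2.12 and 2.10 against 1.83, 4.04, 4.25 and 2.15, so 6 of its 8 values lie below the array median of 2.89, near background. Both were high in 236 and 237, and the differences were 1.01 ± 0.64 and 0.91 ± 0.55 (SE). Other ATF4 targets did not go with them: Trib3 differed by -0.48 ± 0.46 (SE) and the transcript of Atf4 itself by -0.00 ± 0.20.

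**Figure D1:**
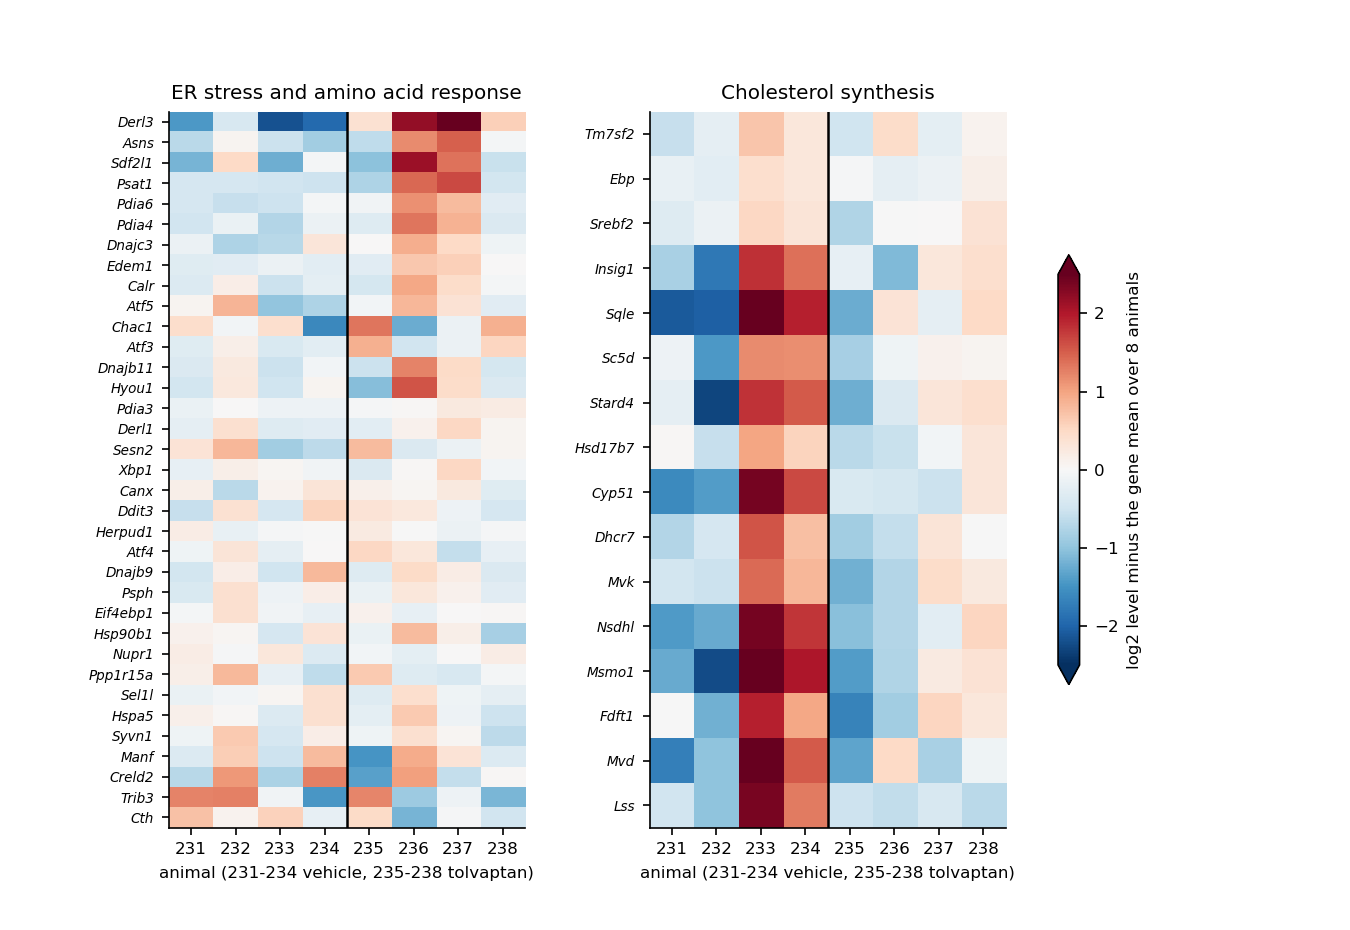
Log2 level of each gene minus its mean over the 8 OR3154 animals, for 35 ER stress and amino acid response genes (left) and 16 cholesterol synthesis genes (right), ordered by the tolvaptan minus vehicle difference, with a line between the vehicle (231 to 234) and tolvaptan (235 to 238) animals. The upper genes on the left are high in 236 and 237, and nearly all genes on the right are high in vehicle animals 233 and 234. The colour scale ends at 2.5 in either direction.

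Acute phase genes differed in a few members, led by Saa3. Saa3 is a serum amyloid A protein made in many tissues during inflammation. It measured 5.93, 6.92, 7.04 and 6.86 in the vehicle animals and 6.72, 10.51, 11.32 and 8.88 in the tolvaptan animals. Animals 236 and 237 were highest, 238 was also above all vehicle animals, and 235 lay inside the vehicle range. The difference was 2.67 ± 0.80 (SE), 6.37-fold, rank 3 of 45 strains, and it was 2.04 without 237 and 3.58 without 235. Set against the mean of the other strains, Saa3 was -0.93 under vehicle, rank 39 of 45, and 0.88 under tolvaptan. Neither passed (adjusted p = 0.487 and 0.475, limma). Haptoglobin (Hp), which binds free haemoglobin, measured 13.13, 13.22, 13.04 and 13.04 against 13.28, 13.57, 13.45 and 13.37. Every tolvaptan animal was above every vehicle animal, by a small amount near the top of the array's range, with a difference of 0.31 ± 0.09 (SE) and rank 2 of 45.

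Orm2, an orosomucoid, measured 7.75, 8.87, 8.18 and 8.57 under vehicle and 8.79, 9.07, 11.19 and 9.56 under tolvaptan. Lcn2, a siderophore-binding protein of inflamed liver, measured 9.79, 11.65, 9.90 and 9.75 against 11.16, 12.62, 12.33 and 10.41. Vehicle animal 232 was high for both, and their differences were 1.31 ± 0.98 and 1.36 ± 1.35 (SE). Saa1 differed by 0.58 ± 0.64, Itih4 by 0.26 ± 0.15 and Hpx, the haem-binding haemopexin, by 0.16 ± 0.07 (SE). Of 31 acute phase genes 23 had a positive difference and 0 passed, with a median of 0.12 against 0.04 in the other strains. The median was 0.05 without animal 235 and 0.29 without animal 232. Orm3 and Hamp2, which stand high in this strain under vehicle, differed by -0.12 ± 0.80 and -0.88 ± 0.95 (SE).

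**Figure D2:**
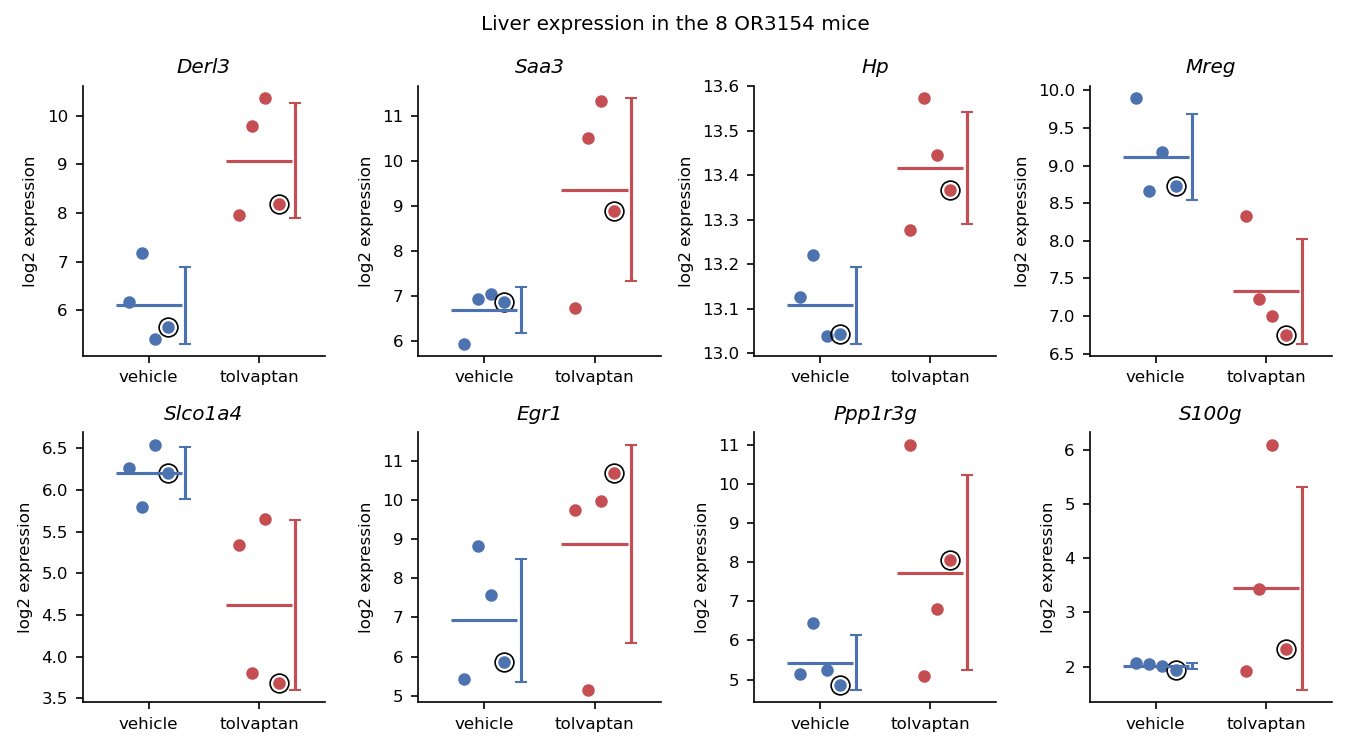
Log2 expression of 8 genes in the 8 OR3154 mice: each dot is 1 animal in the order of its number, circled dots are the pair of scan 1, lines are group means and bars their SD (4 animals each). The groups do not overlap for Derl3, Hp, Mreg and Slco1a4, whereas Saa3, Egr1, Ppp1r3g and S100g each have at least 1 tolvaptan animal within the vehicle range or below it.

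Cholesterol synthesis genes differed mostly among the vehicle animals. Of 16 genes 0 had a positive difference and 0 passed, with a median of -0.51, rank 43 of 45 strains, against 0.11 in the others. Vehicle animals 233 and 234 were the 2 highest of the 8 for 14 of the 16 genes (87.5%), against 4.34% of all genes. Sqle, squalene epoxidase, measured 4.88, 4.94, 9.81 and 8.92 in the vehicle animals and 5.75, 7.33, 6.77 and 7.47 in the tolvaptan animals. Msmo1, a sterol demethylase subunit, measured 7.24, 6.27, 11.53 and 10.54 against 7.11, 7.76, 8.73 and 8.87. The tolvaptan animals lay between the low and the high vehicle pair in both, except that 235 fell between the 2 low vehicle animals for Msmo1. Lss, lanosterol synthase, had the largest difference of the list.

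Lss measured 3.41, 2.88, 6.26 and 5.19 under vehicle and 3.36, 3.28, 3.48 and 3.22 under tolvaptan. Its difference was -1.10 ± 0.47 (SE), rank 44 of 45, and all 4 tolvaptan animals were near vehicle animal 231. Fdft1, squalene synthase, measured 8.49, 7.32, 10.45 and 9.47 against 6.83, 7.65, 9.05 and 8.80, a difference of -0.85 ± 0.36 (SE). Srebf2, the gene of the factor that drives the block, varied less, at 5.77, 5.94, 6.61 and 6.41 against 5.33, 6.08, 6.11 and 6.44. Without vehicle animal 233 the list's median was -0.04 and 6 of 16 genes were positive. Without vehicle animal 232 it was -0.99, and within scan 3 it was -0.37.
The sterol regulatory element, searched as TCACNCCAC, was in the promoter window of 0 of the 13 members with one and in 1.24% of all promoters, which says only that these letters are not in those windows.

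In the same 2 vehicle animals the male-biased genes, which depend on the male pattern of growth hormone pulses, were also high. Hsd3b5, a steroid dehydrogenase, measured 5.91, 3.61, 9.19 and 9.15 under vehicle and 3.67, 2.97, 7.61 and 8.80 under tolvaptan. Animals 232, 235 and 236 were lowest, in both groups, and the difference was -1.20 ± 0.96 (SE). Dbp, a clock output gene whose level swings over the day, measured 7.54, 4.30, 8.20 and 7.51 against 2.99, 3.01, 8.85 and 7.24, again lowest in 232, 235 and 236. Animals 233 and 234 were the 2 highest for 8 of 16 male-biased genes. The hour of necropsy is not in the labels, and its part in these differences was not tested.

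**Figure D3:**
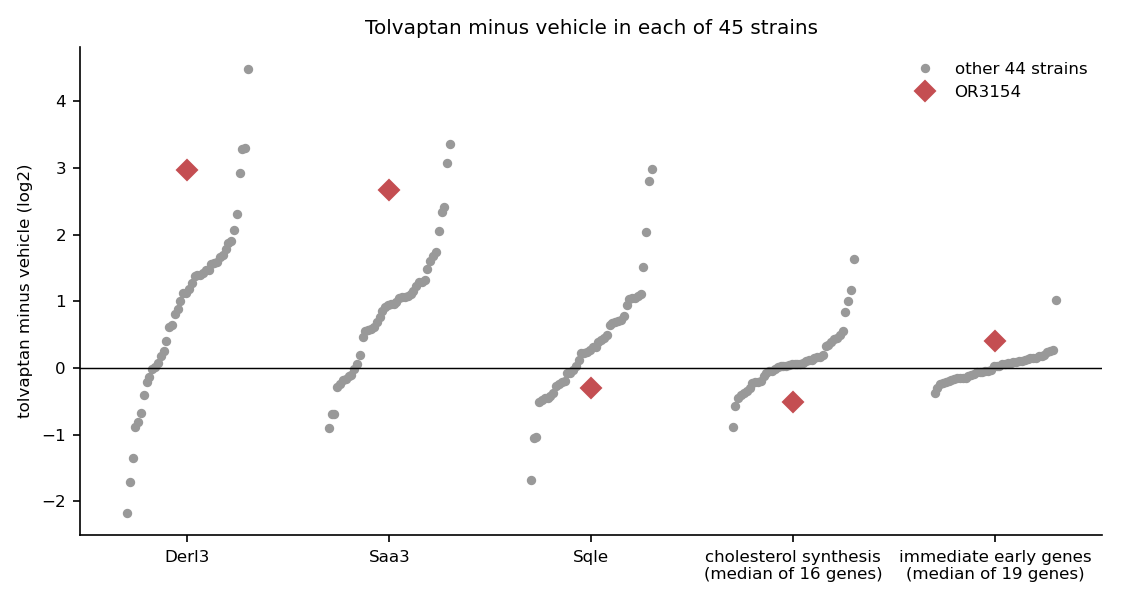
Tolvaptan minus vehicle on the log2 scale in each of 45 strains, for Derl3, Saa3, Sqle and the medians of the cholesterol synthesis and immediate early lists; grey dots are the other 44 strains sorted by value and the diamond is OR3154. OR3154 lies near the top for Derl3, Saa3 and the immediate early median and near the bottom for the cholesterol median.

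Immediate early genes, which respond to signalling and stress without new protein synthesis, had a positive difference in 17 of 19 members, with 0 passing. The median was 0.41 against 0.03 in the other strains, rank 2 of 45. Within scan 3 it was 0.27, and in the single pair of scan 1 it was 0.71. Without the scan 1 arrays of OR3154, 13 of 19 were positive. Under vehicle, 6 of the 19 lay above the other strains, with a median of -0.24, and under tolvaptan that median was 0.25. Egr1 measured 5.43, 8.83, 7.57 and 5.85 in the vehicle animals and 9.74, 5.14, 9.98 and 10.69 in the tolvaptan animals. Animals 235, 237 and 238 were above all vehicle animals, while 236 had the lowest value of the 8. The difference was 1.96 ± 0.87 (SE), with 4.83 in the pair of scan 1 and 1.01 in scan 3. Klf10, a factor induced by glucose and TGF-beta, measured 6.19, 5.47, 6.95 and 5.62 against 6.94, 8.25, 6.73 and 7.33. Nr4a1, an orphan nuclear receptor, measured 3.98, 3.83, 3.64 and 3.69 against 5.26, 4.0, 4.04 and 4.51. The groups of Nr4a1 did not overlap, although 236 and 237 were above the highest vehicle animal by less than 0.1. Of the 19 genes, 1 had all tolvaptan animals above all vehicle animals (0.857% of all genes) and 1 had all below (0.708%). The differences of Klf10 and Nr4a1 were 1.25 ± 0.43 and 0.67 ± 0.37 (SE). Animal 235 was the highest of the 8 for 8 of the 19 genes (42.1%), against 14.5% of all genes, and without it the list's median was 0.20.

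Genes of gluconeogenesis and glycogen had a positive difference in 15 of 17 members, with 0 passing and a median of 0.21, the highest of the 45 strains, against -0.01 in the others. Ppp1r3g, a subunit that brings protein phosphatase 1 to glycogen, measured 5.15, 6.46, 5.25 and 4.87 in the vehicle animals and 11.00, 5.08, 6.79 and 8.04 in the tolvaptan animals. Animal 235 stood far above the rest and 236 was within the vehicle range. The difference was 2.30 ± 0.82 (SE), and 1.25 without 235. G6pc, the last enzyme of glucose release, differed by 0.54 ± 0.32 and Gys2, liver glycogen synthase, by 0.49 ± 0.29 (SE). Within scan 3 the median of the list was 0.09.

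PPAR-alpha targets, which serve fat burning in the fasted liver, had a positive difference in 17 of 24 members, with 0 passing. The median was 0.15, rank 8 of 45 strains, against 0.005 in the others. Within scan 3 that median was 0.03, and in the single pair of scan 1 it was 0.40. Fgf21, a fasting hormone, measured 3.60, 5.45, 3.47 and 3.04 under vehicle and 4.84, 7.60, 4.89 and 5.91 under tolvaptan. The tolvaptan animals were above vehicle animals 231, 233 and 234, and 232 reached into their range. The difference was 1.92 ± 0.91 (SE), rank 2 of 45. Plin2, a lipid droplet coat protein, measured 10.76, 11.88, 11.18 and 11.25 against 11.82, 12.07, 11.77 and 12.04, again with 232 as the vehicle animal inside the tolvaptan range. Its difference was 0.66 ± 0.25 (SE).

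Adipocyte markers, of which 4 were tested, had a positive difference in 3, with a median of 0.36, rank 3 of 45 strains, and 0 passing. Plin4, a lipid droplet coat protein of fat cells, measured 6.21, 6.67, 4.56 and 4.48 in the vehicle animals and 7.42, 8.19, 5.46 and 6.34 in the tolvaptan animals. Animals 235 and 236 were above all vehicle animals, and the difference was 1.37 ± 0.55 (SE). Fabp4, a fatty acid carrier of fat cells and macrophages, measured 5.59, 5.93, 5.87 and 6.08 against 6.80, 6.86, 6.5 and 6.18. Every tolvaptan animal was above every vehicle animal, with a difference of 0.71 ± 0.37 (SE), while Retn differed by 0.01 ± 0.18 and Car3 by -0.51 ± 0.68. The mean of the list was 5.57 to 6.40 under vehicle and 6.28 to 6.78 under tolvaptan. The part of these markers in the differences of the lipid genes was not tested.

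Enzymes of the urea cycle and amino acid breakdown had a negative difference in 23 of 31 members, with 0 passing and a median of -0.17 against -0.03 in the other strains, rank 43 of 45. Uroc1, the urocanase of histidine breakdown, measured 10.73, 10.37, 11.00 and 10.80 in the vehicle animals and 10.25, 9.02, 10.19 and 10.54 in the tolvaptan animals. Animal 236 was lowest and 238 lay inside the vehicle range, for a difference of -0.72 ± 0.20 (SE). Sardh, which oxidizes sarcosine, differed by -0.62 ± 0.22, and the urea cycle enzyme Otc by -0.60 ± 0.31 (SE). Animal 236 was the lowest of the 8 for 16 of the 31 genes (51.6%), against 12.2% of all genes, and without it the median of the list was -0.08. Car5a, which is not in the list, is the mitochondrial carbonic anhydrase that supplies bicarbonate to the urea cycle. It measured 8.38, 8.18, 8.72 and 8.26 in the vehicle animals against 7.36, 5.35, 8.09 and 7.95 in the tolvaptan animals. Every tolvaptan animal was below every vehicle animal, with a difference of -1.20 ± 0.40 (SE) that was -0.59 without 236. Also outside the list, Upb1, the last enzyme of pyrimidine breakdown, differed by -0.45 ± 0.13 (SE) and was lowest in 236 as well. Against the mean of the other strains Upb1 was 0.36 under vehicle and -0.04 under tolvaptan.

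Animal 236 also had the lowest macrophage markers. The mean of the 19 Kupffer cell and macrophage markers was 5.06, 5.78, 5.34 and 5.33 in the vehicle animals and 5.47, 4.65, 5.61 and 5.45 in the tolvaptan animals. Of the 19, 236 was lowest for 13 (68.4%), against 12.2% of all genes. The MHC class II gene H2-Ab1 measured 7.67, 7.10, 8.02 and 7.52 against 7.51, 3.35, 7.73 and 8.48, and 1 of its 3 probe sets had the sign of this difference. The stellate cell and matrix list was lowest in 236 too, with a mean of 4.78 against 5.14 to 5.34 in the other 7. In a bulk liver sample fewer cells of a type and less RNA per cell cannot be told apart. The part of these markers in the other differences of animal 236 was not tested, and the hepatocyte markers averaged 12.65 in it, within the range of the other animals.

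Interferon-responsive genes had a negative difference in 22 of 26 members, with a median of -0.26 against 0.03 in the other strains and 0 passing. Ifit1 measured 4.16, 3.10, 2.94 and 3.34 in the vehicle animals and 2.53, 2.31, 3.37 and 2.92 in the tolvaptan animals. It is dim, with a tolvaptan mean of 2.78 below the array median of 2.89, so the size of its difference is uncertain. The list's mean was 5.34, 5.13, 5.54 and 5.64 against 4.87, 4.80, 5.74 and 5.28, so 235 and 236 were lowest and 237 highest. Without 236 the median was -0.11, and without 237 it was -0.39.

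Among single genes below vehicle under tolvaptan, Mreg had the lowest unadjusted p. Mreg encodes melanoregulin, a protein of organelle transport. It measured 9.90, 8.66, 9.18 and 8.72 in the vehicle animals and 8.33, 7.23, 7.00 and 6.75 in the tolvaptan animals. All tolvaptan animals were below all vehicle animals, and the difference was -1.78 ± 0.42 (SE), 3.44-fold, with -1.72 in scan 3 and -1.97 in scan 1. It ranked 44 of 45, and the other strains averaged -0.11. Snai2, a transcription factor of the Snail family, differed by -0.91 ± 0.29 (SE), with no overlap and the lowest rank of the 45 strains. Against the mean of the other strains Snai2 was 0.64 under vehicle and -0.25 under tolvaptan.

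The transporter Slco1a4, a PXR target that takes up organic anions, measured 6.26, 5.79, 6.54 and 6.21 in the vehicle animals and 5.34, 3.80, 5.65 and 3.69 in the tolvaptan animals. All tolvaptan animals were below all vehicle animals, with 236 and 238 lowest, and the difference of -1.58 ± 0.72 (SE) was the lowest of the 45 strains. Sult2a8, a liver sulfotransferase, differed by -1.16 ± 0.39 (SE) and was also the lowest of 45. Cyp7a1, the rate-limiting enzyme of bile acid synthesis, measured 9.85, 5.37, 8.80 and 8.16 against 6.41, 6.37, 7.47 and 6.48. Vehicle animal 232 was the lowest of all 8, the other 3 vehicle animals were above all tolvaptan animals, and the difference was -1.36 ± 0.86 (SE).

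Car6 and S100g had the lowest p of all genes in the response, and both are dim. Car6, a secreted carbonic anhydrase, measured 2.64, 2.19, 2.11 and 2.71 against 2.93, 3.45, 3.10 and 3.31, which puts its vehicle mean below the array median of 2.89. S100g, a calcium-binding protein, measured 2.06, 2.05, 2.0 and 1.93 against 1.92, 3.43, 6.09 and 2.33. Its difference of 1.43 ± 0.31 (SE) rests on animals 237 and 236, while 235 had the lowest value of the 8. That SE uses the spread shared over all strains, whereas the SD of the tolvaptan animals of OR3154 was 1.88. Of brighter genes, Rcc1, which loads Ran with GTP in the nucleus, measured 5.78, 6.84, 5.96 and 5.85 against 8.21, 7.01, 5.94 and 8.05. It was high in 235 and 238 and differed by 1.19 ± 0.34 (SE), the highest of the 45 strains.

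Of the genes tied to the drug's target and handling, 0 passed. Avpr2, the V2 receptor, was too dim to be tested, at 1.95 to 2.49 in the 8 livers, and the liver vasopressin receptor Avpr1a differed by 0.21 ± 0.45 (SE). Cyp3a11, of the family that metabolizes tolvaptan, measured 12.81, 12.72, 12.50 and 12.67 in the vehicle animals and 12.79, 12.34, 12.69 and 12.91 in the tolvaptan animals, with overlapping groups and a difference of 0.01 ± 0.31 (SE). The CAR target Cyp2b10 differed by 0.37 ± 1.10 and Alas1, the rate-limiting enzyme of haem synthesis, by 0.50 ± 0.49 (SE). Of the bile salt and drug transporters, Abcb11 differed by -0.23 ± 0.33, Abcc2 by 0.02 ± 0.30, Slc10a1 by -0.21 ± 0.25 and the dim Abcb1a by -0.28 ± 0.23 (SE). CAR and PXR targets were positive in 6 of 21 members, with a median of -0.10 and 0 passing.

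**Figure D4:**
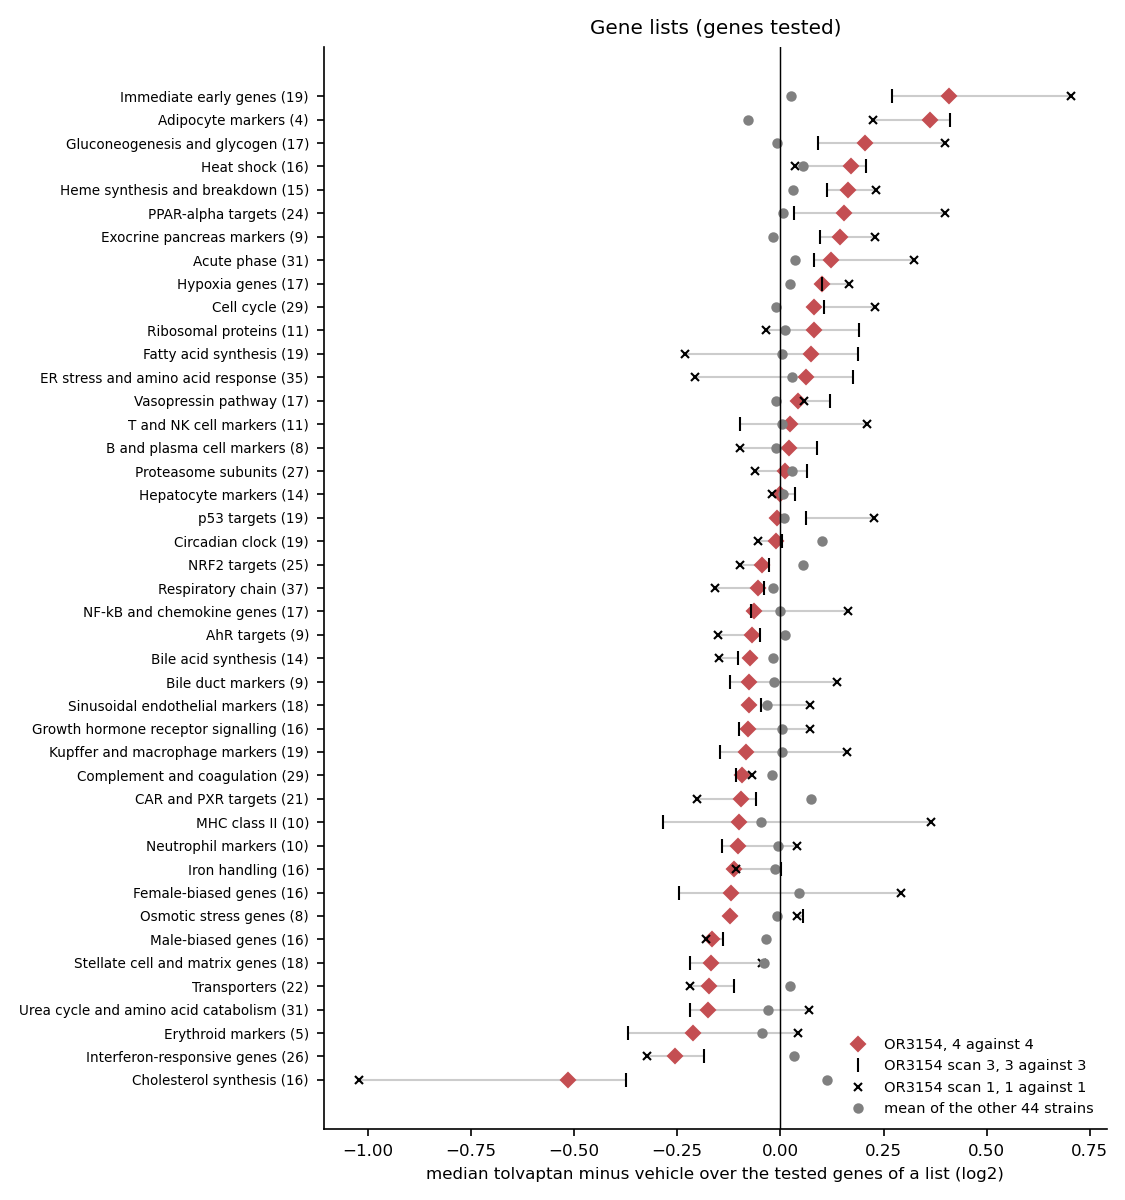
Median tolvaptan minus vehicle difference (log2) over the tested genes of each of 43 lists, with the number of genes tested in brackets: diamonds are OR3154 with all 8 animals, bars and crosses its scan 3 and scan 1 animals alone, and grey dots the mean of the other 44 strains. Cholesterol synthesis lies lowest (-0.51) and immediate early genes highest (0.41), and no list has a gene that passed.

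The 69 genes that passed in the other 44 strains come from a contrast of those strains' means, although the OR3154 arrays entered the shared spread and scan terms of that model. Of these, 52 had the same sign in OR3154: 33 of the 43 that rose elsewhere and 19 of the 26 that fell. The 51.6% of positive differences over all genes is the share to set beside the 43, not beside the 26. For the 43 the median difference in OR3154 was 0.31, against 0.16 in the other strains, and 29 differed by more in OR3154. For the 26 the median was -0.09 against -0.13. Derl3, Hp and Il17rb, an interleukin receptor chain, were the 3 of the 43 whose tolvaptan animals all lay above the vehicle animals in OR3154 (0.857% of all genes), and 0 of the 26 had all tolvaptan animals below (0.708% of all genes).

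The second comparison asked how the OR3154 liver differs from the other strains under vehicle. Of 14125 genes 673 (4.76%) passed, 365 higher and 308 lower than the mean vehicle level of the other 44 strains, and 226 of them by at least 2-fold. The OR3154 tolvaptan arrays, whose own means do not enter this contrast but which share its spread and scan terms, gave the same sign for 662 of the 673 against the tolvaptan arrays of the other strains, and 380 passed there too. OR3154 was the highest or lowest of 45 strains for 209, by vehicle means adjusted for scan, which all vehicle ranks below use. The count was 377 without vehicle animal 231, 412 without 233, 374 without 234 and 385 without the OR3154 arrays of scan 1. Probes were designed on 1 reference strain, and whether sequence variants under a probe contribute was not tested: of 265 genes with several probe sets, all probe sets had the same sign for 202.

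Among the 8 largest positive differences were Col5a2, Orm3 and Sult1e1. Col5a2, a collagen V chain, measured 10.51, 7.37, 11.26 and 10.33 in the vehicle animals, against strain means of 3.15 to 9.63 and a median of 4.46 elsewhere. It was 4.64 ± 0.49 (SE) above the mean of the other strains (adjusted p = 3.86e-15, limma), with both of its probe sets in the same direction, and animal 232 was the lowest of the 4. Orm3, an orosomucoid, measured 10.32, 10.43, 10.17 and 10.40 against a median of 6.49 elsewhere. It was 3.56 ± 0.59 (SE) higher (adjusted p = 1.23e-06, limma). Sult1e1, oestrogen sulfotransferase, was 3.55 ± 0.47 (SE) higher (adjusted p = 4.06e-10, limma), at 6.67, 8.75, 6.59 and 4.79 against a median of 2.32 elsewhere. By means adjusted for scan, Col5a2, Orm3 and Sult1e1 each had rank 2 of 45 strains. Their unadjusted vehicle means (9.87, 10.33 and 6.70) lay slightly above the highest unadjusted mean of the other strains (9.63, 10.24 and 6.62). All 3 passed in the tolvaptan arrays as well.

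The brain-enriched stress gene Fam107a was 3.73 ± 0.64 (SE) higher, the hepcidin family gene Hamp2 2.96 ± 0.70 and the steroid hydroxylase Cyp17a1 2.64 ± 0.68 (adjusted p = 0.00592 or less in limma). All 3 passed in the tolvaptan arrays. Cyp17a1 was no longer called without vehicle animal 231. Cyp2b10 measured 10.42, 11.68, 9.74 and 8.06 in the vehicle animals and 11.78, 11.47, 8.69 and 9.45 in the tolvaptan animals. It stood 2.96 ± 0.81 (SE) above the other strains under vehicle (adjusted p = 0.0118, limma) and 2.98 above them under tolvaptan, and was not called without animal 231 or without 232. Cyp26a1, which breaks down retinoic acid, was 2.64 ± 0.57 (SE) higher and the highest of 45, but did not pass in the tolvaptan arrays (adjusted p = 0.0826, limma).

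Among the 8 largest negative differences were Pon2, Ugt3a2 and Prxl2b. Pon2, a paraoxonase, measured 4.69, 3.86, 4.83 and 5.30 in the vehicle animals, against strain means of 4.24 to 8.25 and a median of 7.74 elsewhere. It was -2.94 ± 0.21 (SE) from the other strains (adjusted p = 1.91e-30, limma), with all 4 of its probe sets in the same direction. Ugt3a2, a glycosyltransferase, measured 4.21, 4.01, 2.99 and 3.93 against a median of 10.74 elsewhere, a difference of -4.78 ± 0.84 (SE). Prxl2b, a peroxiredoxin-like prostaglandin enzyme, measured 3.33, 2.51, 4.01 and 2.78 against a median of 7.42, a difference of -4.36 ± 0.32 (SE). All 3 passed in both treatments and have OR3154 among the 4 lowest strains.

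H2-Eb1, an MHC class II chain, measured 3.82, 4.0, 3.94 and 3.70 against a median of 6.99 elsewhere and was -2.90 ± 0.47 (SE) from the other strains (adjusted p = 8e-07, limma), while 0 of the other 9 MHC class II genes passed. Dct, a melanin synthesis enzyme, was -2.91 ± 0.63 and the MHC-like H2-Bl -2.72 ± 0.63 (SE) from the others, and both passed in the tolvaptan arrays. The vehicle means of Dct (2.49) and H2-Bl (2.41) lie below the array median, so the size of their differences is uncertain. Nlrp12, an inflammasome regulator, was -2.87 ± 0.64 (SE) and Fgf21 -2.64 ± 0.67 (adjusted p = 0.000740 and 0.00493, limma). Neither passed in the tolvaptan arrays (adjusted p = 0.216 and 0.659), where Fgf21 was -0.68 from the other strains. Fgf21 was not called without vehicle animal 234.

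By list, 25 of 43 held at least 1 gene that passed under vehicle. Over all genes 4.76% passed, and the lists are read beside that share. Urea cycle and amino acid catabolism held 7 of 31 tested, all higher: Cps1, Hal, Hgd, Prodh, Aass, Gpt2 and the glutamate transporter Slc1a2. Aass, which starts lysine breakdown, was 1.05 ± 0.22 (SE) above the others and the highest of 45 strains, while Cps1, the entry enzyme of the urea cycle, was 0.41 ± 0.12 higher. PPAR-alpha targets held 4 of 24 tested, all lower: Fgf21, Vnn1 (-2.35 ± 0.52), Acaa2 (-0.28 ± 0.07) and Creb3l3 (-0.29 ± 0.09, SE), and 0 of the 4 passed in the tolvaptan arrays. The vehicle arrays are also 1 side of the response above, so low vehicle values and positive differences of PPAR-alpha targets share those 4 animals. High vehicle values and negative differences of the urea cycle list share them too. Its median against the other strains was 0.25 under vehicle and 0.07 under tolvaptan. Of the 365 genes called higher under vehicle, 114 had a positive response, as did 216 of the 308 called lower.

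Female-biased genes held 4 that passed of 16 tested, all higher, and all animals are labelled male. They were Sult1e1, Cyp17a1, Fmo4 (1.16 ± 0.20, SE) and Ntrk2 (1.23 ± 0.27, with 4 of 6 probe sets in this direction). The list as a whole did not lean: 8 of 16 members lay above the other strains, with a median of 0.02. In OR3154, 7 of the 16 had both group means below the array median. Male-biased genes held 1 higher and 2 lower of 16 tested. Of these 16, 9 lay above the other strains, with a median of 0.03. The male-biased uptake transporter Slco1a1 was -1.20 ± 0.34 (SE) from the other strains, the lowest of 45. NRF2 targets held 4 lower of 25 tested, among them the glutathione S-transferase Gstm2 (-2.49 ± 0.44, SE), and 1 higher. Stat2, which carries the interferon signal, was 1.63 ± 0.26 (SE) higher, and the ileal bile acid transporter Slc10a2 was 1.54 ± 0.29 higher at a dim mean of 3.92. For cholesterol synthesis 16 of 16 members lay above the other strains under vehicle with a median of 0.60, but in the tolvaptan arrays that median was -0.05. The mean of the list was 9.32 and 8.69 in vehicle animals 233 and 234 and 6.80 and 6.43 in 231 and 232. A single member passed, Sc5d (0.91 ± 0.23, SE, with 1 of its 3 probe sets in this direction), which did not pass in the tolvaptan arrays (adjusted p = 0.165, limma). The median of all genes in this contrast was -0.0008.

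**Figure D5:**
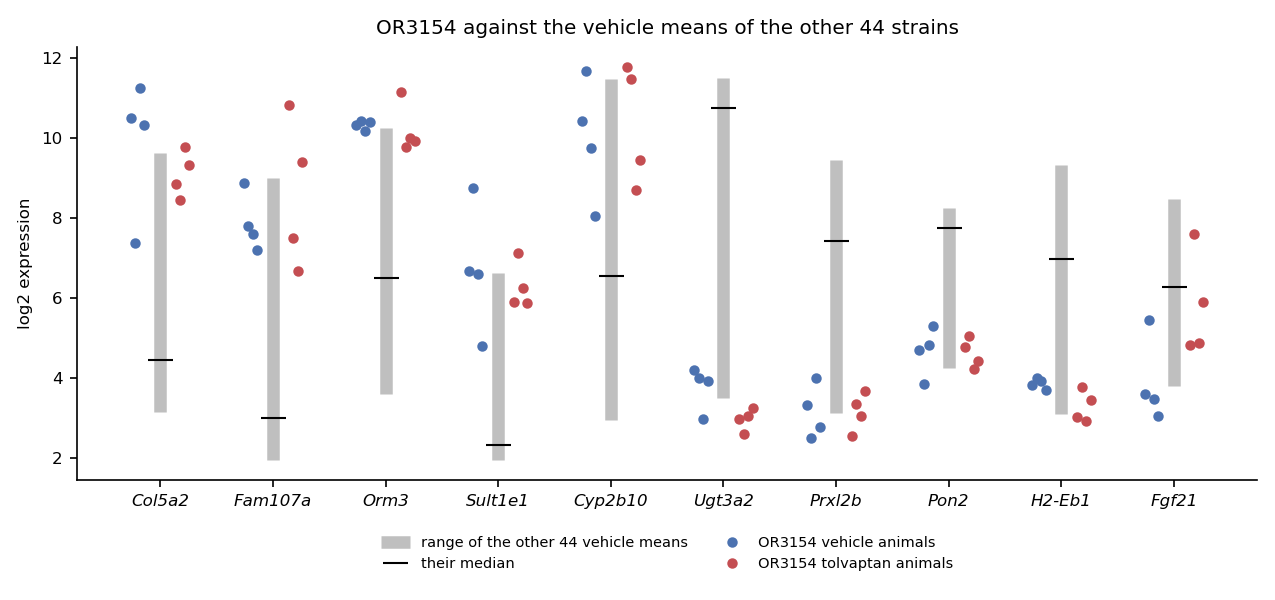
Log2 expression of 10 genes called in the vehicle contrast: dots are the 4 vehicle and 4 tolvaptan animals of OR3154, grey bars span the vehicle means of the other 44 strains and black ticks mark their median. Both OR3154 groups stand on the same side of the median for every gene shown except Fgf21, where 1 tolvaptan animal (7.60) lies above it, and Col5a2, Fam107a, Orm3, Sult1e1 and Cyp2b10 reach past the upper end of the bar in some animals.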

How the data were processed

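Liver RNA was hybridised to one-colour Affymetrix arrays. The authors deposited log2 expression values, summarised by RMA with the Affymetrix Expression Console according to the submitters' processing notes; versions are not given in the sources used here. Arrays have no read depth, and their number limits the precision. Of 42597 probe sets 27691 had 1 gene symbol. Each gene took its brightest probe set on average, and 14125 genes that exceeded the array median on 4 or more arrays were tested. The limma model (version 3.58.1, R 4.3.3) gave every strain and treatment a mean and added scan, over 354 arrays, so the spread of each gene is shared over all strains. P-values are two-sided and were adjusted by the Benjamini-Hochberg method. Replicates are separate animals, numbered 231 to 238, and no number pairs a vehicle with a tolvaptan animal. The steps were tested on simulated arrays.

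The members, the 43 gene lists and the tests were chosen with earlier results of these data known. Genes were named by a rule: the 12 lowest p in each direction with the same sign in both scans, the member with the largest difference of each list, the 8 highest and 8 lowest called vehicle differences, up to 6 each way against the other strains, and fixed drug genes. Other list members named were chosen after their values were seen. The tolvaptan contrast against other strains and the centring in the strain check were added after seeing the data.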

Additional observations from a re-analysis of the deposited data

Results flagged for a closer look

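In groups of 4, an animal was singled out when its gap to the nearest other animal took up most of the group's range (Dixon's test at 95%), which chance gives for about 1 group in 20. Of 232 groups (116 genes in vehicle and tolvaptan), 15 met this, 4 of them through animal 237. Among vehicle animals, 231 was low for Saa3 (5.93) and high for Snai2 (5.56). Animal 232 was high for the chemokine Cxcl13 (6.49) and for Lcn2 (11.65) and low for the endothelial receptor Kdr (5.80). Animal 233 was high for Alas1 (11.30), and animal 234 for Gpr45 (2.79) and Prss54 (2.95). Among tolvaptan animals, 235 was high for Orm3 (11.14) and low for the neutrophil gene Ltf (2.57), and 236 was low for Otc (8.06). Animal 237 was high for Cyp7a1 (7.47), Dct (2.88) and Ltbp3 (4.52) and low for the hypoxia gene P4ha2 (5.84).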

How the results depend on the processing

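The count of genes called for tolvaptan in OR3154 was 0, and it became 1 without the OR3154 arrays of scan 1, 1 without the arrays off their strain, 2 with the mean of all probe sets, 1 after quantile normalization and 4 with array weights. Leaving out 1 animal at a time gave 0 to 3. Against the mean of the other strains the count was 0, and it became 1 without the arrays off their strain and 3 with array weights, and 0 to 1 without single animals (1 each without 235, 237 or 238). The cause of these shifts was not tested. The vehicle contrast gave 673 genes, 385 without the OR3154 arrays of scan 1 and 1147 with array weights, and 374 to 686 without single animals. It gave 644 to 923 under the other settings. No OR3154 array fell under the identity limit with 300, 500 or 1000 probe sets. Without centring 0 of all 354 arrays did, so that setting does not tell strains apart. The medians of the 8 leading lists kept their sign in every setting tried for them, and the cholesterol median ranged from -0.99 to -0.04 without single animals. The single pair of scan 1 alone was not among these settings. In that pair the ER median was -0.21 and the urea cycle median 0.07, both opposite in sign to those with all 8 animals. Car6, S100g, Dct and H2-Bl lie near background, which limits how well the size of their differences is known. No paired analysis was possible because no label ties a vehicle animal to a tolvaptan animal.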
